A study of Mus musculus with 5 samples.

Results

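The *Il1b*, *Il1a*, *Il1rn*, *Il18*, *Tnf*, *Il6*, *Nlrp3*, *Pycard*, *Casp1* and *Gsdmd* genes, which encode inflammatory cytokines, an interleukin antagonist and parts of the inflammasome, were followed in RNAseq libraries of macrophages from atherosclerotic mouse aortas. The genes were taken by their symbols, and all 10 were found once each among the 55487 genes of the deposited table. The 5 libraries came from male mice in which both genotypes lacked *Apoe*. In 2 libraries, referred to as *Zeb1*WT/*Apoe*KO, the floxed *Zeb1* alleles were intact (*Zeb1* fl/fl without Cre), and in 3 libraries, *Zeb1*∆M/*Apoe*KO, *Zeb1* was targeted in myeloid cells by Cre expressed from the *Lyz2* (LysM) locus, which is also active in neutrophils. All mice ate regular chow for 8 weeks and a Western diet, rich in fat and cholesterol, for another 10 weeks. According to the methods, each genotype and condition was represented by the mixed cells of 3 mice. Aortas were freed of perivascular fat and digested with enzymes, and live cells positive for CD45 and for the macrophage antigen encoded by *Adgre1* were sorted, with CD11b as a further gate in the methods. The cDNA was made with the SMART-Seq v4 kit for ultra-low input. The study describes its replicates in general as independent samples, but no source used here says which mice went into which library, so p-values measure the spread between these libraries, of which some may be technical. The libraries are called WT replicates 1 and 2 and ∆M replicates 1, 2 and 3.

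The inflammasome is a cytosolic complex in which a sensor such as NLRP3 recruits the adaptor ASC, encoded by *Pycard*, and thereby activates the protease caspase-1. Caspase-1 cleaves the precursors of IL-1β and IL-18 into their active forms and cleaves gasdermin D, whose fragment forms pores in the plasma membrane. In plaque macrophages cholesterol crystals are a known trigger of NLRP3, and transcription of *Il1b* and *Nlrp3* is induced by NF-κB. Messenger RNA levels, which are what was measured here, do not report on cleavage or release of these proteins.

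Read totals and detection set what could be seen. The authors deposited RSEM expected counts, and the totals were 20118545 and 34596110 in the WT libraries and 24372265, 35771785 and 50649912 in the ∆M libraries. A floor of 3 counts, below which a gene was taken as not detectable, was 0.149, 0.0867, 0.123, 0.0839 and 0.0592 CPM of these totals (CPM is the count scaled to a common library size). Such floors speak for counting error alone, because PCR copies of 1 molecule can be counted many times. ∆M replicate 1 stood apart, with 16423 genes over the floor but only 870 with 100 counts or more, against 5009 to 6931 and 1714 to 4421 genes in the other libraries. The median count of genes over the floor was low in both libraries numbered 1, at 13 in WT replicate 1 and 14 in ∆M replicate 1. It was 641 to 1498 in the others. In all, 52.0% of the 21705 genes over the floor in any library were over it in 1 library alone, and 1085 genes were over it in all 5.

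*Zeb1* itself was at 0 counts in the WT libraries and at 22, 0 and 0 in the ∆M libraries, and could not serve to check which libraries carried its deletion. *Lyz2*, the myeloid lysozyme gene that drives Cre, had 596080 and 777264 counts in the WT libraries and 161607, 856923 and 869804 in the ∆M libraries. *Apoe* had between 0 and 86 counts.

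Of the 10 inflammasome and cytokine genes, 6 and 7 were over the floor in the WT libraries and 3, 4 and 6 in the ∆M libraries. Those with at least 100 counts numbered 4 and 6 in the WT libraries and 0, 4 and 6 in the ∆M libraries. Only *Il1b* and *Il1rn* were over the floor in all 5 libraries. *Tnf* and *Pycard* were over it in 4 libraries, *Il18* and *Nlrp3* in 2, and *Il1a*, *Il6*, *Casp1* and *Gsdmd* in 1. In ∆M replicate 1 the highest count of the 10 genes was 21.

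**Figure D1:**
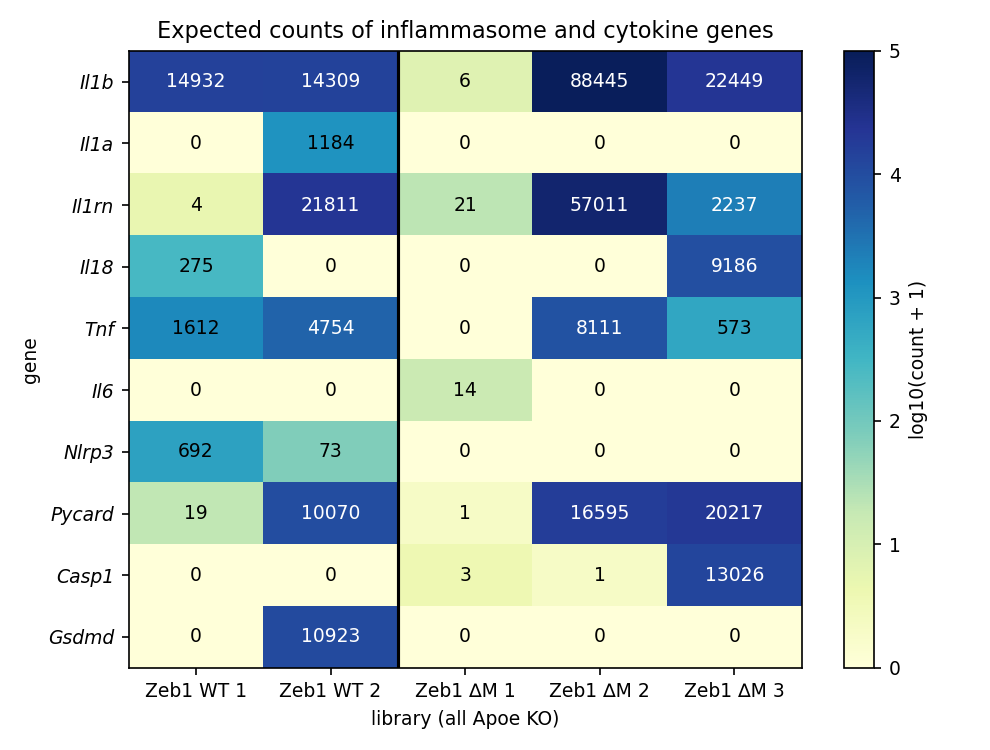
Expected counts of the 10 genes (rows) in the 5 libraries (columns), printed in each cell and coloured by log10(count + 1), with a vertical line between genotypes. *Il1b* has 14309 counts or more in 4 libraries and 6 in ∆M replicate 1, while *Il1a*, *Casp1* and *Gsdmd* each have high counts in 1 library only.

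The promoters of 4 of the genes are shown as examples of a cytokine matured by the inflammasome (*Il1b*), a cytokine that is not (*Tnf*), the adaptor (*Pycard*) and the sensor (*Nlrp3*). Each line gives the 250 bases before a RefSeq transcript start (GRCm38.p6), 5′ to 3′ on the gene's own strand. Capitals mark matches, on either strand, to the motifs searched: TATAAA (the core of the TATA box), TGANTCA (the AP-1 type), GAGGAA (the core of the PU.1 site), CACCTG (the E-box bound by ZEB1) and the κB consensus motif. No matches of different motifs overlapped. The windows are chr2:129371140-129371389 for *Il1b*, chr17:35202008-35202257 for *Tnf* and chr7:127993868-127994117 for *Pycard*, all on the minus strand, and chr11:59541319-59541568, on the plus strand, for the *Nlrp3* start that lies furthest upstream.
Il1b: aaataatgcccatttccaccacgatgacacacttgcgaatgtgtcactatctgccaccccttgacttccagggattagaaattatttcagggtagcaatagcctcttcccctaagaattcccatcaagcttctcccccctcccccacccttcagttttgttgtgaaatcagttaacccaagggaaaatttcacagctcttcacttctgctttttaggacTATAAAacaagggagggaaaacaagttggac
Tnf: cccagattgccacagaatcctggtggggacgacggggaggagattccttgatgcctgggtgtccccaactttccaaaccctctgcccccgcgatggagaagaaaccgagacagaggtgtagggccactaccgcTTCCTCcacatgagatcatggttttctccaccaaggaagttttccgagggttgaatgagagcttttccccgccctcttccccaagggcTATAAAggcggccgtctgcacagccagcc
Pycard: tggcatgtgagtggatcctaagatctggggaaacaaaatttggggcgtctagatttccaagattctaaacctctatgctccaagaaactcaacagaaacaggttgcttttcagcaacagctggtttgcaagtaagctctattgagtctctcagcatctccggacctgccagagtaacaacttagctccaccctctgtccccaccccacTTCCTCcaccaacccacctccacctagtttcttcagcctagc
Nlrp3: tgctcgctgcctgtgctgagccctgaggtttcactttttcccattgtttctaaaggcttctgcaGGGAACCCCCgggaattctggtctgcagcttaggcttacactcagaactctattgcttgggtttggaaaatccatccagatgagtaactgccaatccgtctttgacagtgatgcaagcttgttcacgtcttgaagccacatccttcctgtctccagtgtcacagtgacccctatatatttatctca

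RefSeq windows were matched for 9 of the 10 genes, all but *Gsdmd*, and gave 12 windows, as *Il1rn* has 3 listed starts and *Nlrp3* has 2. The TATA box motif, held by 12.4% of all 32851 promoter windows of this length, was found 31 to 26 bases before the *Il1b* start, 29 to 24 before the *Tnf* start, 32 to 27 before the *Il1a* start and, on the other strand, 175 to 170 before the *Il18* start. The PU.1 core, held by 23.3% of all windows, was found in *Tnf*, *Pycard*, *Il1a*, *Casp1* and the other *Nlrp3* window. The κB consensus motif (7.25% of all windows) was found in *Il6*, 44 to 35 bases before its start, and in the *Nlrp3* window printed, 186 to 177 bases before the start. The AP-1 type motif (6.75%) was found in *Il6*, *Il1a* and 1 *Il1rn* window. CACCTG, held by 17.2% of all windows, was in 0 of the 12. These are matches of letters in a short window and say nothing of binding by the factors.

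The comparison of the genotypes asked which of these genes differed with the targeting of *Zeb1* in myeloid cells. It was fitted to all genes by the quasi-likelihood method of edgeR, with p-values adjusted after Benjamini and Hochberg (BH). Of 7905 genes that passed the filter on low counts, 0 had an adjusted p under 0.05, a background of 0%, and 86 had an unadjusted p under 0.05. The filter passed 6 of the 10 genes (*Il1b*, *Il1rn*, *Il18*, *Tnf*, *Nlrp3* and *Pycard*) and not *Il1a*, *Il6*, *Casp1* and *Gsdmd*. None of the 6 had an adjusted p under 0.05 (edgeR, BH), all 6 being at 1, and 1, *Nlrp3*, had an unadjusted p under 0.05. DESeq2, with its default options and own filter, called 790 of the 6519 genes to which it gave an adjusted p, 12.1%, and 3 of the 5 genes studied here that had one, *Nlrp3*, *Il1a* and *Gsdmd*. All 3 were counted in WT libraries alone, so that the direction of each call was fixed. limma-voom with sample quality weights, fitted to the genes tested by edgeR, called 234 of 7905 genes, 2.96%, and 0 of the 6. The median log2 fold change of all genes tested, ∆M minus WT, was 0.78 after TMM scaling, 1.24 with RLE size factors, 0.29 with upper-quartile scaling and 0.13 with total counts alone, and the fold changes below from all 5 libraries are to be read against these medians. With 1 library left out, the median was 1.96 without WT replicate 1, 3.997 without WT replicate 2, and -0.48, 0.76 and 0.61 without ∆M replicates 1, 2 and 3. In sorted but bulk samples, fewer cells of a kind and less RNA per cell cannot be told apart.

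*Il1b* encodes IL-1β, the main cytokine product of the inflammasome. The gene (ENSMUSG00000027398.13, chr2:129364570-129371139, minus strand) had 14932 and 14309 counts in the WT libraries and 6, 88445 and 22449 in the ∆M libraries. ∆M replicate 1 was the lowest of the 5 libraries and ∆M replicate 2 the highest, so the genotypes overlapped. After TMM scaling the level was 478 ± 88.7 CPM (SD, n = 2) in WT and 838 ± 1088 CPM (SD, n = 3) in ∆M. The log2 fold change was 0.81 (SE 3.05, adjusted p = 1, edgeR with BH), close to the median of all genes. A two-sided exact permutation test of the mean log2 CPM gave p = 0.9, where 0.1 is the smallest p that 2 against 3 libraries allow. That mean was 8.89 in WT and 6.32 in ∆M, so that the mean of logs, on which ∆M replicate 1 weighs most, and the fitted fold change had opposite directions. The direction of the fold change turned without ∆M replicate 2, with a log2 fold change of -1.01, and with upper-quartile scaling, with -3.82. Thus, no difference in *Il1b* between genotypes was detectable beyond the spread between ∆M libraries.

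Per exon length, *Il1b* was among the higher genes of 4 libraries. Its level in RPKM (CPM after TMM scaling, divided by the exon length in kilobases) was 283.5 and 217.7 in the WT libraries and 0.260, 1084 and 234.3 in the ∆M libraries. Ranked by RPKM among genes over the floor, it was gene 282 of 6919 and 292 of 6051 in the WT libraries, and 9830 of 16382, 40 of 5001 and 316 of 6820 in the ∆M libraries. It was therefore in the upper 0.800% to 4.83% of ranked genes in 4 libraries, and below the middle of the ranking in ∆M replicate 1. A noncoding gene on the other strand, *Il1bos*, overlaps *Il1b* exons and was counted only in ∆M replicate 1, with 5 counts, beside 6 for *Il1b*. The kit does not mark strand, so reads of the overlapping parts cannot be told apart.

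*Il1rn* encodes the IL-1 receptor antagonist, which occupies the receptor without signalling. Its counts (ENSMUSG00000026981.15, chr2:24336853-24351494, plus strand) were 4 and 21811 in the WT libraries and 21, 57011 and 2237 in the ∆M libraries. WT replicate 1 and ∆M replicate 1 were both low, and WT replicate 2 and ∆M replicate 2 were high. ∆M replicate 3 lay between, as gene 2850 of 6820 by RPKM. TMM CPM was 317 ± 447 (SD, n = 2) in WT and 460 ± 757 (SD, n = 3) in ∆M, a log2 fold change of 0.54 (SE 3.43, adjusted p = 1, edgeR with BH). It was -0.46 without WT replicate 1 and -3.69 without ∆M replicate 2. Without WT replicate 2 it was 11.60, beside a median of 3.997 for all genes there.

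The balance of the ligand and its antagonist was taken as the ratio of their RPKM within a library. It was 1.90 in WT replicate 2, 4.50 in ∆M replicate 2 and 29.1 in ∆M replicate 3, the libraries in which both genes had at least 100 counts. Per exon length, taken over all annotated exons of a gene, *Il1b* had the higher level in each of these 3 libraries. In WT replicate 2 that order rested on the lengths, 1907 bases for *Il1b* and 5535 for *Il1rn*, as the counts were 14309 and 21811. No comparison of genotypes was made, as the need for 100 counts left 1 WT library. In WT replicate 1, 14932 counts of *Il1b* stood beside 4 of *Il1rn*, and in ∆M replicate 1 the counts were 6 and 21.

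*Tnf* encodes tumour necrosis factor, a cytokine that needs no inflammasome. It (ENSMUSG00000024401.14, chr17:35199381-35202007, minus strand) had 1612 and 4754 counts in the WT libraries and 0, 8111 and 573 in the ∆M libraries. Both WT values lay between the ∆M values, of which the highest was in ∆M replicate 2, as for *Il1b* and *Il1rn*. TMM CPM was 98.2 ± 56.3 (SD, n = 2) in WT and 67.0 ± 106 (SD, n = 3) in ∆M, with a log2 fold change of -0.55 (SE 4.77, adjusted p = 1, edgeR with BH). Without ∆M replicate 1 the log2 fold change was 0.03, and without WT replicate 2 it was 0.20, beside a median of 3.997 for all genes there. The RPKM of *Il1b* was 7.96 and 2.59 times that of *Tnf* in the WT libraries, and 9.37 and 33.7 times in ∆M replicates 2 and 3.

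**Figure D2:**
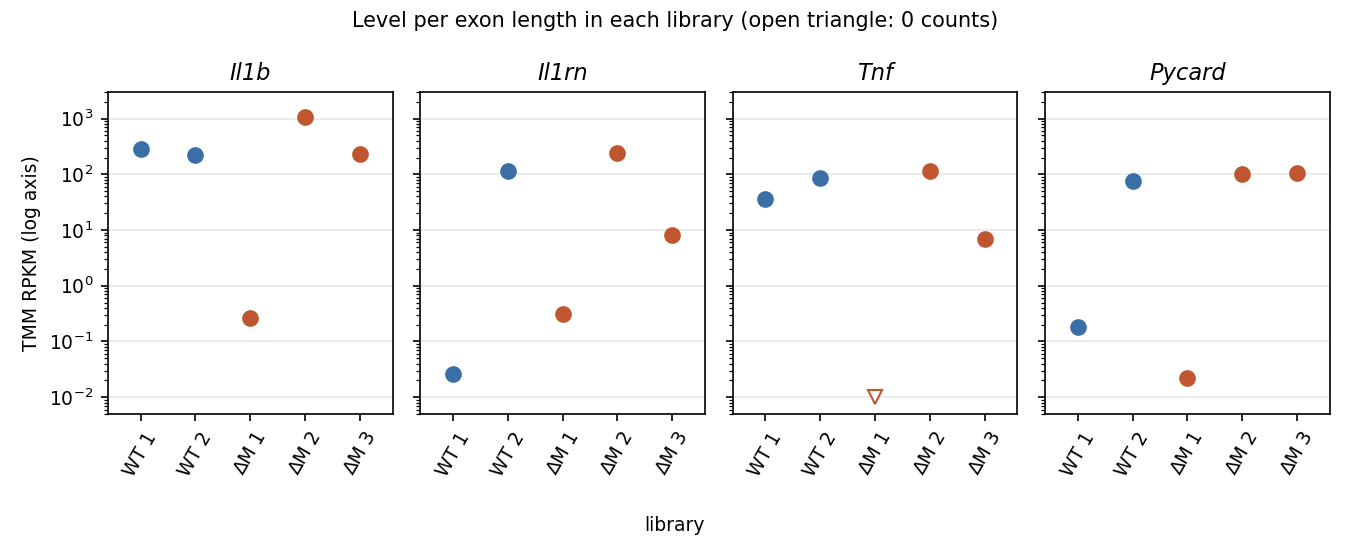
Level per exon length (TMM RPKM, log axis) of *Il1b*, *Il1rn*, *Tnf* and *Pycard* in each library, WT in blue and ∆M in red, 1 point a library, with an open triangle for 0 counts. *Il1b* lies between 217.7 and 1084 in 4 libraries and at 0.260 in ∆M replicate 1, and for *Il1b*, *Tnf* and *Pycard* both the lowest and the highest point are ∆M libraries.

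*Il18* encodes IL-18, the other cytokine matured by caspase-1. It (ENSMUSG00000039217.13, chr9:50554827-50581840, plus strand) had 275 and 0 counts in the WT libraries and 0, 0 and 9186 in the ∆M libraries. A single library of each genotype held its counts, and the genotypes overlapped at 0. The log2 fold change was 3.61 (SE 4.90, adjusted p = 1, edgeR with BH). It rested on ∆M replicate 3, without which it was -10.19. With that library kept it was also below 0 with upper-quartile scaling, at -2.61, and with the replicate number fitted as a block, at -6.56.

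*Il1a* encodes IL-1α, a ligand of the IL-1 receptor that is active without cleavage by caspase-1. All of its 1184 counts (ENSMUSG00000027399.1, chr2:129299610-129309972, minus strand) were in WT replicate 2, with 0 in the other 4 libraries. *Il6*, which encodes interleukin-6, had 14 counts in ∆M replicate 1 and 0 elsewhere (ENSMUSG00000025746.11, chr5:30013114-30019981, plus strand). *Il6* was the only one of the 10 genes counted in ∆M replicate 1 alone, and at 0 counts up to 3 are allowed in the other libraries, which is 0.0597 to 0.109 TMM CPM. DESeq2 called *Il1a* lower in ∆M (adjusted p = 1.61e-07, BH), and the exact permutation test of its mean log2 CPM gave p = 0.4. With counts in WT replicate 2 alone, the direction of a call for *Il1a* was fixed.

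Among the parts of the inflammasome, *Nlrp3*, the sensor, was counted in WT libraries alone. The gene (ENSMUSG00000032691.14, chr11:59541568-59566956, plus strand) had 692 and 73 counts in the WT libraries and 0, 0 and 0 in the ∆M libraries. Both WT libraries were therefore above all ∆M libraries, an order that no scaling can change while ∆M is at 0. The WT mean was 13.6 ± 16.2 TMM CPM (SD, n = 2), and the highest ∆M floor of 3 counts was 0.248 TMM CPM, in ∆M replicate 1. The WT mean was 54.9-fold that floor, and WT replicate 2 alone 8.56-fold. These folds allow for counting error alone, so they are not minimum folds of expression. Its unadjusted p was 0.0321 and its adjusted p was 1 (edgeR with BH), the exact permutation test gave p = 0.1, the smallest possible, and the adjusted p was 0.0280 with DESeq2 and 0.459 with limma-voom. *Nlrp3* passed the filter through the WT libraries alone, so that a tested value for it had to lie on the WT side. Per exon length *Nlrp3* was at 6.18 and 0.522 RPKM in the WT libraries, gene 1333 of 6919 and 4750 of 6051, so that it ranked among the higher genes of WT replicate 1 and the lower genes of WT replicate 2. Over all genes tested, 4.54% were higher in both WT libraries without overlap and 6.68% were higher in all ∆M libraries.

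*Pycard* encodes ASC, the adaptor that joins sensor and caspase. It (ENSMUSG00000030793.4, chr7:127989708-127993867, minus strand) had 19 and 10070 counts in the WT libraries and 1, 16595 and 20217 in the ∆M libraries. The libraries numbered 1 were low in both genotypes and the other three were high. TMM CPM was 146 ± 206 (SD, n = 2) in WT and 264 ± 228 (SD, n = 3) in ∆M, with a log2 fold change of 0.85 (SE 3.94, adjusted p = 1, edgeR with BH). It was -0.15 without WT replicate 1 and 8.57 without WT replicate 2, beside medians of 1.96 and 3.997 for all genes there. With the replicate number fitted as a block it was -1.21. In the 3 libraries with high counts *Pycard* was at 76.9, 102 and 106 RPKM, a narrower span than that of *Il1b*, *Il1rn* or *Tnf* in the same libraries. *Gm45205*, on the other strand and overlapping *Pycard* exons, had 1264 counts in ∆M replicate 3 and 0 to 4 elsewhere, and reads of the shared parts cannot be told apart.

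*Casp1*, the inflammasome protease, had 0 and 0 counts in the WT libraries and 3, 1 and 13026 in the ∆M libraries (ENSMUSG00000025888.6, chr9:5298517-5307265, plus strand). All ∆M values were above the WT values, but those of ∆M replicates 1 and 2 were not over the floor, so the difference rested on ∆M replicate 3. In that library it reached 173 RPKM, gene 464 of 6820. *Gsdmd*, which encodes gasdermin D, had all of its 10923 counts in WT replicate 2 (ENSMUSG00000022575.5, chr15:75862327-75867408, plus strand), where it was at 133 RPKM, gene 539 of 6051. DESeq2 called *Gsdmd* lower in ∆M (adjusted p = 1.21e-08, BH), although WT replicate 1 also had 0 counts, and the exact permutation test gave p = 0.4. With counts in WT replicate 2 alone, a call for *Gsdmd* could lie on the WT side only. The exact test gave p = 0.5 for *Casp1*, which DESeq2 gave no adjusted p.

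The libraries that held the parts of the inflammasome differed. *Nlrp3*, *Pycard*, *Casp1* and *Gsdmd* were over the floor together in 0 of 5 libraries, and so were *Nlrp3*, *Pycard* and *Casp1*. *Nlrp3* with *Pycard* was over the floor in 2 libraries, both WT, and *Nlrp3* with *Pycard* and *Gsdmd* in 1, WT replicate 2. At 100 counts or more of each gene, both sets were found in 0 libraries. *Pycard* with *Casp1*, and *Casp1* with both of its cytokine substrates *Il1b* and *Il18*, were over the floor together in 1 library, ∆M replicate 3. *Il1b*, *Il1rn*, *Tnf* and *Pycard* were over the floor together in 4 libraries, and at 100 counts or more together in 3. These are the genes over the floor in 4 or 5 libraries, so no contrast with the parts of the inflammasome is drawn from them. The 4 genes counted over the floor in 1 library alone were 4 of 10, beside the 52.0% of all genes given above.

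**Figure D3:**
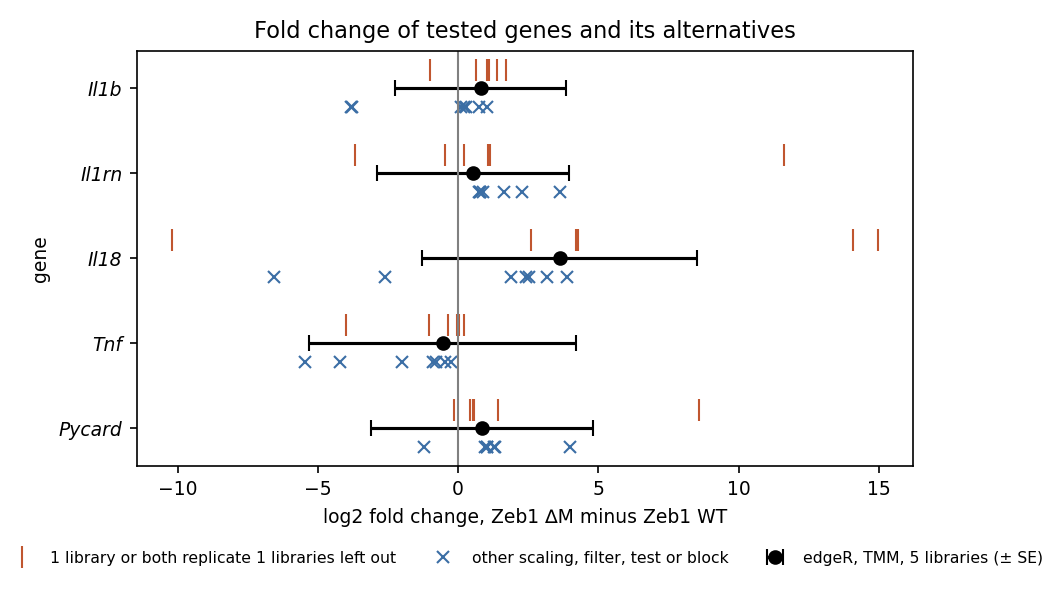
Log2 fold change (∆M minus WT, x axis) of the 5 tested genes counted in both genotypes. Black points with bars are the edgeR values ± SE, red ticks leave out 1 library or both libraries numbered 1, and blue crosses use another scaling, filter, test or block. Each gene has values on both sides of 0, and the SE bars of all 5 cross 0.

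The genes whose level followed *Il1b* most closely across the libraries were named by the smallest root mean square difference in log2 CPM after centring each gene on its own mean. They were *Zcrb1* (0.37), *S100a4* (0.42), *Phb* (0.44), *Mcts1* (0.50) and *Sec61g* (0.51), over 5 libraries. Each had 0 to 3 counts in ∆M replicate 1 and its highest count in ∆M replicate 2, as *Il1b* did. Among the other inflammasome and cytokine genes *Tnf* was nearest to *Il1b*, at 1.17, followed by *Pycard*, at 3.40. These likenesses are over libraries of both genotypes and are a description only.

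The further genes of these pathways were taken from 4 lists of 96 symbols in all, of which 93 were in the table and 3 (*Il36a*, *Il36g* and *Il36rn*) were not matched. *Il36g* is another symbol of *Il1f9*, which was among the 93, so that gene was listed under both symbols. Of the 93, 47 passed the filter and 0 had an adjusted p under 0.05 (edgeR with BH) or an unadjusted p under 0.05, while DESeq2 called 7 of the 41 with an adjusted p, beside 12.1% of all genes, and limma-voom 2 of 47, beside 2.96%. The log2 fold change was above 0 for 27 of the 47 (57.4%), with a median of 0.63, beside 60.9% and a median of 0.78 for all genes tested, against which the counts for each list are also to be read. Without overlap, 0 were higher in WT and 5 in ∆M, which is 10.6% of those tested beside 6.68% of all genes.

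Of 27 further inflammasome genes (sensors, caspases, pore genes and their regulators) 22 were over the floor in some library and 0 in all 5. The filter passed 13, with 8 above 0 and a median log2 fold change of 1.97, and 0 of the 13 were without overlap. *Casp8*, an apoptotic caspase that also acts downstream of ASC, was not tested and had 0 and 0 counts in the WT libraries and 3, 3252 and 8 in the ∆M libraries, without overlap but with ∆M replicate 1 not over the floor. The highest were *Txnip*, which encodes an NLRP3-binding redox protein, *Ninj1*, whose product ruptures the plasma membrane, and *Card19*. *Txnip* had 1 and 11873 counts in the WT libraries and 1, 21559 and 3480 in the ∆M libraries, low in the same libraries as *Pycard*. *Ninj1* had 19 and 5 counts in the WT libraries and 0, 24928 and 11983 in the ∆M libraries, so the genotypes overlapped only through ∆M replicate 1. *Card19* had 0 and 2590 counts in the WT libraries and 1, 13730 and 6075 in the ∆M libraries. DESeq2 called 1 gene of this list, the flagellin sensor *Naip5* (adjusted p = 0.0414, BH), which limma-voom also called (adjusted p = 0.0164, BH). It was named after its values were seen, had 0 and 0 counts in the WT libraries and 0, 3801 and 2089 in the ∆M libraries, and may share reads with its paralogs. As it passed the filter through ∆M libraries alone, a tested value had to lie on the ∆M side with either tool.

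Of 19 genes for IL-1 and IL-18 receptors, decoys and signalling, 15 were over the floor in some library and 8 were tested, 6 of them above 0, with a median of 3.75. The receptor gene *Il1r1*, named after its values were seen, had 0 counts in every library, and the decoy receptor gene *Il1r2* had 0 and 337 in the WT libraries and 0, 22779 and 0 in the ∆M libraries. *Irak3*, an inhibitor of IL-1 and Toll-like receptor signalling, had 0 and 16741 counts in the WT libraries and 5054, 2358 and 0 in the ∆M libraries, and *Tab2*, an adaptor of the kinase TAK1, had 309 and 769 and then 3026, 0 and 0. The kinase gene *Irak1* was the only one of the list without overlap, at 0 and 0 counts in the WT libraries and 2103, 125 and 240 in the ∆M libraries (edgeR adjusted p = 1, BH). The exact permutation test gave p = 0.1 for it, and since it passed the filter through the ∆M libraries alone, its value could lie on the ∆M side only.

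The list for the TNF and interleukin-6 axis was the most often counted, with 23 of 24 genes over the floor in some library and 18 tested. Of these, 9 were above 0, with a median of 0.10. *Zfp36*, which encodes an RNA-binding protein that destabilises *Tnf* mRNA, had 36154 and 23773 counts in the WT libraries and 2088, 37601 and 17013 in the ∆M libraries. *Tnfaip3*, which encodes the NF-κB inhibitor A20, had 33691 and 1670 counts in the WT libraries and 22, 2802 and 12181 in the ∆M libraries. The genotypes overlapped for both.

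*Tnfrsf1b*, which encodes TNF receptor 2, had 995 and 435 counts in the WT libraries and 28215, 9861 and 6956 in the ∆M libraries. All ∆M libraries lay above both WT libraries, except with upper-quartile scaling, where the genotypes overlapped. TMM CPM was 24.3 ± 16.5 (SD, n = 2) in WT and 899 ± 1239 (SD, n = 3) in ∆M, with a log2 fold change of 5.21 (SE 3.20, adjusted p = 1, edgeR with BH) and an exact permutation p of 0.1. *Cflar*, which encodes the caspase-8 inhibitor c-FLIP, had 11 and 323 counts in the WT libraries and 2265, 3815 and 12381 in the ∆M libraries, without overlap in each scaling tried, at an exact permutation p of 0.1. *Birc2*, which encodes the ubiquitin ligase cIAP1, had 0 and 0 counts in the WT libraries and 20, 12252 and 7806 in the ∆M libraries. *Il6st*, which encodes the shared receptor subunit gp130, had 0 and 0 and then 78, 3811 and 1, the last of which is below the floor. The exact permutation test gave p = 0.2 for both. With WT at 0, both passed the filter through ∆M libraries alone, so that the direction of any call was fixed. DESeq2 called *Birc2* (adjusted p = 0.00170, BH), the other gene called by limma-voom (adjusted p = 7.84e-05, BH), and *Il6st* (adjusted p = 0.0200, BH). It also called *Mlkl* and *Ripk3*, named after their values were seen. Their counts over the floor were all in WT replicate 2, so that their direction was fixed as well.

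Of 23 other macrophage cytokines, 16 were over the floor in some library and 8 were tested, 4 of them above 0, with a median of 0.12 and none without overlap. *Il16* was counted in WT replicate 2 (4318) and ∆M replicate 3 (26559) and at 0 elsewhere. *Mif*, macrophage migration inhibitory factor, had 4335 and 1235 counts in the WT libraries and 0, 8739 and 12164 in the ∆M libraries. *Nampt*, which makes an NAD precursor and is also secreted, had 0 and 4005 counts and then 30, 0 and 20009. DESeq2 called *Lif* and *Tnfsf9*, also named after their values were seen, and over the floor in 1 library each. *Lif* was counted in ∆M libraries alone and *Tnfsf9* in WT replicate 2 alone, so that the direction of each call was fixed.

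**Figure D4:**
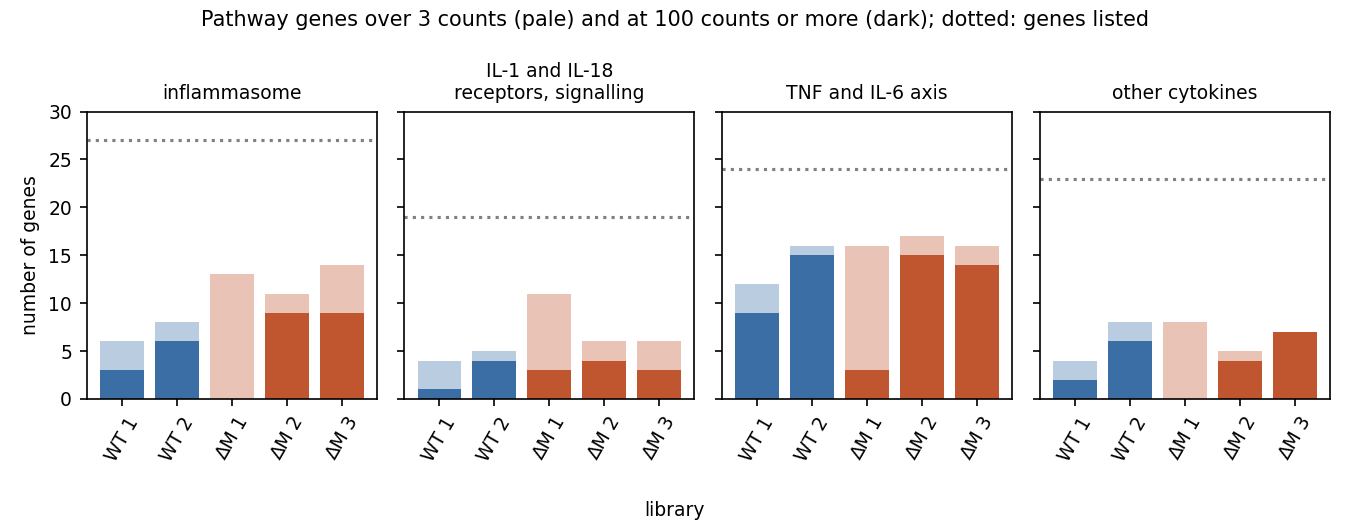
Number of genes of each pathway list (y axis) over 3 counts (pale bars) and with 100 counts or more (dark bars) in each library, with the number of genes listed as a dotted line, WT in blue and ∆M in red. In ∆M replicate 1 the pale bars reach 8 to 16 genes and the dark bars 0 to 3, while in the other libraries they reach 4 to 17 and 1 to 15.

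The sorted cell type was checked against its markers. The 14 macrophage markers summed to 23061 to 41356 CPM of the total in the 5 libraries, with 10 to 13 of them over the floor in each. With TMM scaling the sum of ∆M replicate 1 was the highest, at 46378 CPM, whereas by total counts it was the lowest. In that library 5 of the 14 had at least 100 counts, against 10 to 13 in the others, and *C1qb* (398502 counts) and *Lyz2* (161607) made up most of the sum, while *Csf1r* had 25 counts, *Cd14* 33, *Cd68* 10, *C1qa* 5 and *Itgam* 0. *Adgre1* had 1068 counts there and *Ptprc* 475. The library with the lowest *Il1b* count thus also had low counts of most macrophage markers. WT replicate 1, with 10 of the 14 at 100 counts or more, had 0 counts of *Cd68* and *C1qa* and 502 of *Csf1r*. WT replicate 2 had 44664, 53826 and 9214 counts of these genes. *Il1b*, *Il1rn* and *Tnf* are also transcribed by neutrophils, in which LysM-Cre is active and which the gate on the *Adgre1* antigen is meant to leave out. The 12 neutrophil markers summed to 3592 and 1163 CPM in the WT libraries and 1437, 1505 and 138 CPM in the ∆M libraries, with 4 to 6 of them over the floor. Of these markers *Camp* and *Ngp* had 0 counts in every library and *Ly6g* at most 1. *S100a8* had 33862 and 11811 counts in the WT libraries and 33132, 22405 and 962 in the ∆M libraries, and *S100a9* had 29483 and 10969 and then 0, 4180 and 1041. *Csf3r* had 33 and 7309 counts in the WT libraries and 15, 17767 and 4976 in the ∆M libraries, and *Retnlg* had 8892 and 355 and then 0, 9370 and 0. *Mmp8* had 8665 counts in WT replicate 2 and 581 in ∆M replicate 1. Counts were lowest in ∆M replicate 1 and highest in ∆M replicate 2 for *Il1b* and for markers of several lists, among them the neutrophil gene *Csf3r*, the macrophage genes *Cd14* and *C1qc* and the leukocyte gene *Ptprc*, but not for *S100a8*. The 12 T cell markers summed to 11.2 and 7507 CPM in the WT libraries and 5.29, 636 and 1970 CPM in the ∆M libraries, low in the same libraries as *Pycard*. The part of other cells in these values was not tested.

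**Figure D5:**
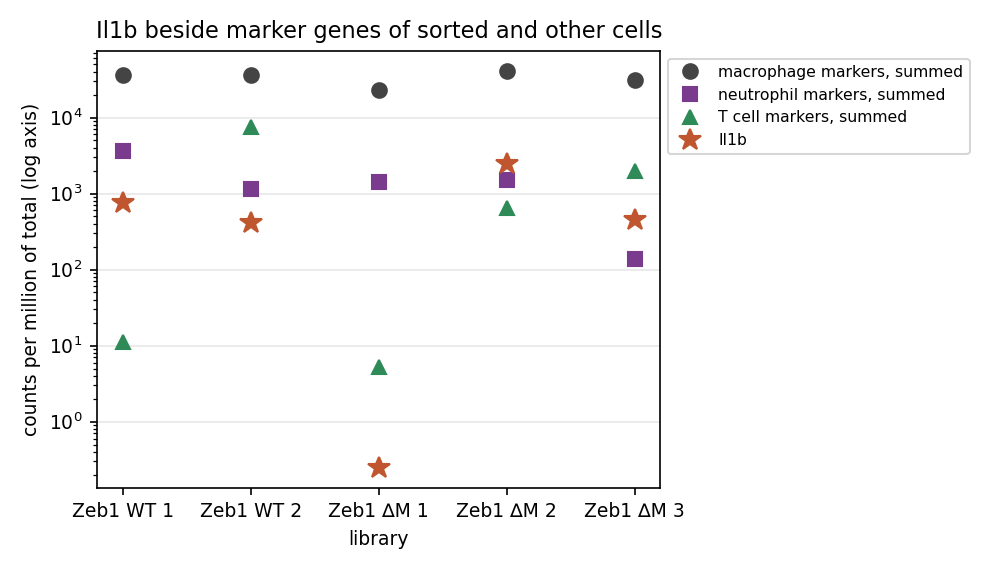
*Il1b* (stars) beside the summed macrophage, neutrophil and T cell markers in each library, in CPM of the library total (log axis). The macrophage sum is between 23061 and 41356, carried in ∆M replicate 1 mostly by *C1qb* and *Lyz2*. The neutrophil sum was 1437, 1505 and 138 in the ∆M libraries, where *Il1b* was lowest in replicate 1 and highest in replicate 2.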

How the data were processed

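RNA was measured in 5 libraries of sorted aortic macrophages, which the labels assign to 2 genotypes. The authors aligned paired-end reads to GRCm38 with STAR 2.5.3a and quantified them with RSEM 1.3.0 on GENCODE version 25, as given in the methods and the submitters' processing notes, and deposited expected counts as whole numbers, without normalization or a filter. Whether counting used strand is not given in the sources used here. The kit amplifies the cDNA of few cells.

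The fit used edgeR 4.0.16 (R 4.3.3). Low genes were removed by filterByExpr (minimum count 10), and the rest were scaled by TMM, with factors of 1.42 and 1.06 (WT) and 0.515, 1.25 and 1.03 (∆M), and tested by quasi-likelihood between genotypes with no covariate, at a BH adjusted p of 0.05. The common dispersion was 6.44. Single genes had a two-sided exact permutation test of mean log2 CPM (prior count 2) over the 10 ways to take 2 of 5 libraries, in scipy 1.17.1, with the absolute difference as statistic. RPKM used the exon length of GENCODE M21, taken over all annotated exons of a gene, which can exceed the length of a single transcript. A fold against libraries at 0 used their highest floor of 3 counts and is a lower bound for counting error alone. Alternatives were RLE, upper-quartile and total-count scaling, no filter, at least 10 counts in every library, DESeq2 1.42.0 with its own filter, limma-voom with sample quality weights (limma 3.58.1), a replicate block, libraries left out, and a threshold of 0.1. The edgeR test was checked on simulated data.

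The genes named were the 10 genes themselves, and of each pathway list the genes called, the 3 with the highest mean CPM and any without overlap. *Il1r1*, named after its values were seen, and single marker genes fell outside this rule. The 5 genes nearest to *Il1b*, which had the highest mean CPM, and *Zeb1*, *Lyz2* and *Apoe* were also named. The genes, lists and tests were chosen with earlier results of these data known. Further sums for markers of B cells, dendritic cells, smooth muscle, endothelium, fibroblasts and mast cells were at or under 1442 CPM of the total in every library. Labels and methods differ on the sort, and methods state triplicates where 2 WT libraries were analysed here.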

Additional observations from a re-analysis of the deposited data

How the results depend on the processing

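edgeR called 0 genes. DESeq2 with default options, which also changes the filter, called 790 (12.1% of those with an adjusted p), among them 3 of the 5 cytokine and inflammasome genes with an adjusted p, of which *Il1a* and *Gsdmd* were not tested by edgeR and *Nlrp3* was at a log2 fold change of -11.57 (adjusted p = 0.0280), and 7 of the pathway lists. limma-voom with sample quality weights, a change of both method and weighting, called 234 genes, 2 of them in the pathway lists. Leaving out libraries gave 0 to 1 genes called, with 1 both without ∆M replicate 1 and without both libraries numbered 1. Of the 10 genes 2 were without overlap, and 2 to 6 with libraries left out, 4 without WT replicate 1 and 6 without both libraries numbered 1. Over all 7905 genes tested the share without overlap was 11.2% with 5 libraries, 39.4% without WT replicate 1 and 53.4% without both libraries numbered 1, and of the 6 genes tested it was 1, 1 and 3 genes. Upper-quartile scaling reversed *Il1b* (-3.82) and *Il18* (-2.61). The labels number libraries 1 and 2 in both genotypes. Across these 2 pairs the correlation of replicate differences was 0.18, too few pairs to say that the numbers pair the samples, and fitted as a replicate block they called 0 genes and reversed *Il1b* (-3.80), *Il18* (-6.56) and *Pycard* (-1.21). With libraries left out the log2 fold change ranged from -1.01 to 1.70 for *Il1b*, -3.69 to 11.60 for *Il1rn*, -4.02 to 0.20 for *Tnf*, -10.19 to 14.95 for *Il18* and -0.15 to 8.57 for *Pycard*, while the median of all genes tested ranged from -0.48 without ∆M replicate 1 to 3.997 without WT replicate 2. The log2 fold change of *Nlrp3* ranged from -17.39 to -9.17 over the alternatives, and its sign could not turn with every ∆M library at 0. The causes were not tested. A minimum of 10 counts in every library left none of the 10 genes tested. Where 1 WT library was left, it was assumed to vary like the others.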
